A study of Mus musculus with 8 samples.

Results

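The let-7 and miR-98 guides are the 9 mature mouse miRNAs mmu-let-7a-5p, mmu-let-7b-5p, mmu-let-7c-5p, mmu-let-7d-5p, mmu-let-7e-5p, mmu-let-7f-5p, mmu-let-7g-5p, mmu-let-7i-5p and mmu-miR-98-5p, written below without the species prefix. They were chosen by name, and every read sequence to which the deposited table gave one of these names was counted as a read of that guide. The family took 9 of 895 miRNA names and 2141 of 47204 read sequences.

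The reads are RISC-bound small RNAs (R-sRNAs) from the brains of 8 mice. All 8 carried the 5XFAD transgene (5XFADtg), whose expression is driven by the neuronal Thy1 promoter, and they differed in Rubicon, a gene that restrains autophagy. The 4 het mice were Rubicon+/- and the 4 ko mice Rubicon-/-, on a mixed C57BL/6J/SJL background. Mice of this comparison were 6 months old, from crosses examined at 6 or 8 months, and the libraries carry no age label of their own. No mouse without the transgene and none with both Rubicon copies intact was analysed here, so the het mice are not wild type. Lysates held both cortex and hippocampus, and Argonaute proteins were captured with a tagged GW182 peptide before 19 to 35 nt RNA was cut from a gel and sequenced.

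let-7 was found in worms as a regulator of developmental timing and is among the most conserved animal miRNAs. In mammals its members are low in embryonic and stem cells, where LIN28 blocks the processing of their precursors, and abundant in differentiated tissue, the adult brain included. A miRNA acts as a guide strand in an Argonaute protein and finds its target mRNAs mainly through its seed, and as all 9 members share that seed they are thought to repress largely the same mRNAs. Small RNAs with certain seeds can kill cells by silencing genes needed for survival, a process abbreviated DISE, and the deposited table scores each 6mer seed by the viability of mouse cells given that seed.

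The mature sequences are shown because they define the family and because single bases separate its members. They are the RefSeq sequences for GRCm38.p6, 5′ to 3′, in the order of the levels found here, and the capitals mark the seed (bases 2 to 8).
let-7c-5p: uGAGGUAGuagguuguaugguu
let-7b-5p: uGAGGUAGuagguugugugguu
let-7a-5p: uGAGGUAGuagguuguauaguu
let-7f-5p: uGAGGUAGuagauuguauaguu
let-7d-5p: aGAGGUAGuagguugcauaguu
let-7g-5p: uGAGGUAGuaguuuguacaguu
let-7e-5p: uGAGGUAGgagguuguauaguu
let-7i-5p: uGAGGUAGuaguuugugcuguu
miR-98-5p: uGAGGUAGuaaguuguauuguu

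All 9 matures are 22 nt long. Relative to let-7a, with its base named first and positions counted from 1 at the 5′ end, let-7c differs by A19G, let-7e by U9G and let-7f by G12A. let-7b differs by A17G and A19G, let-7d by U1A and U16C, let-7g by G12U and U18C, and miR-98 by G11A and A19U. let-7i is the most distant, with the 4 changes G12U, A17G, U18C and A19U. The G and C content is highest in let-7b at 45.5%, is 40.9% in let-7c, let-7d, let-7e and let-7i and 36.4% in let-7a and let-7g, and is lowest in let-7f and miR-98 at 31.8%.

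These guides come from 12 hairpins, placed here by the GENCODE M21 annotation of GRCm38. let-7a-1 (chr13:48538179-48538272), let-7f-1 (chr13:48537829-48537917) and let-7d (chr13:48536012-48536114) lie on the minus strand within an exon of the lincRNA 6720427I07Rik. let-7c-2 (chr15:85706603-85706697) and let-7b (chr15:85707319-85707403) lie on the plus strand within an exon of the noncoding transcript Lncppara. let-7f-2 (chrX:151912346-151912428) and miR-98 (chrX:151913214-151913321) share an intron region of Huwe1, which encodes a ubiquitin ligase. let-7c-1 (chr16:77599657-77599750) is intronic in Mir99ahg, let-7a-2 (chr9:41536716-41536811) in the noncoding 3110039I08Rik, let-7e (chr17:17830352-17830444) in Spaca6 and let-7g (chr9:106178840-106178927) in Wdr82. let-7i (chr10:122985640-122985724) overlaps an exon of the transcribed pseudogene D630033A02Rik. let-7a, let-7c and let-7f each have 2 hairpins with the same mature sequence, so their guide reads cannot be assigned to 1 locus.

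Depth ranged from 509839 to 19878054 reads per library, and the family alone had from 86625 to 3739441 reads. The 2 libraries with over 5000000 reads were both ko. A share of reads as large as that of the family had a 95% Wilson interval at most 0.206 percentage points wide. Scarce sequences rest on few reads in the shallow libraries, where 1 read is worth up to 1.93 CPM (reads per 1000000 reads of a library). Intervals cover counting error only, since the reads had no molecular identifiers. 5 miRNAs of neurons summed to between 178727 and 279811 CPM per library and miR-122-5p of liver was at most 22.3 CPM. The summed level of 7 epithelial miRNAs was 2249 to 8555 CPM in het and 226 to 1794 CPM in ko. Of these, miR-203-3p (65.2 to 113 CPM in het, 59.3 to 80.3 CPM in ko) and miR-205-5p overlapped between the groups. miR-200c-3p and miR-141-3p overlapped through ko replicate 3. The part of these miRNAs in the results given here was not tested. In such lysates fewer cells of a type and less RNA per cell cannot be told apart.

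To see how much of the RISC the family occupied, the CPM of its 9 members were summed in each library. The family held 167236, 194041, 156762 and 162496 CPM in het replicates 1 to 4 and 209639, 187762, 207633 and 153772 CPM in ko replicates 1 to 4. The lowest and the second highest ko library, replicates 4 and 3, bracketed all 4 het libraries, so the groups overlapped. The means were 170134 ± 16503 CPM in het and 189701 ± 25908 CPM in ko (SD, n = 4 each), and single libraries had between 15.4% and 21.0% of their reads in the family. The difference of 19568 CPM did not pass (exact two-sided permutation p = 0.257, with 0.0286 the smallest p that 4 against 4 allows).

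The 9 members covered a wide range of levels, and 8 of them were among the 50 most abundant miRNAs of 895. let-7c-5p was the highest at 49398 ± 6251 CPM (SD, n = 8), rank 5 after miR-128-3p, miR-26a-5p, miR-9-5p and miR-124-3p, which had means from 52509 to 68599 CPM. let-7b-5p followed with 35987 ± 11360 CPM and let-7a-5p with 29680 ± 5001 CPM, and these 3 guides made up 64.0% ± 5.12 of the family. let-7f-5p had 20149 ± 5784 CPM and let-7d-5p 14056 ± 2853 CPM. Below them, let-7g-5p at 11594 ± 3673, let-7e-5p at 10213 ± 1981 and let-7i-5p at 8035 ± 1876 CPM lay close together. miR-98-5p, with 805 ± 239 CPM, stood at rank 115, and let-7i-5p, its nearest neighbour, was at least 3.21 log2 units above it in every library.

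**Figure D1:**
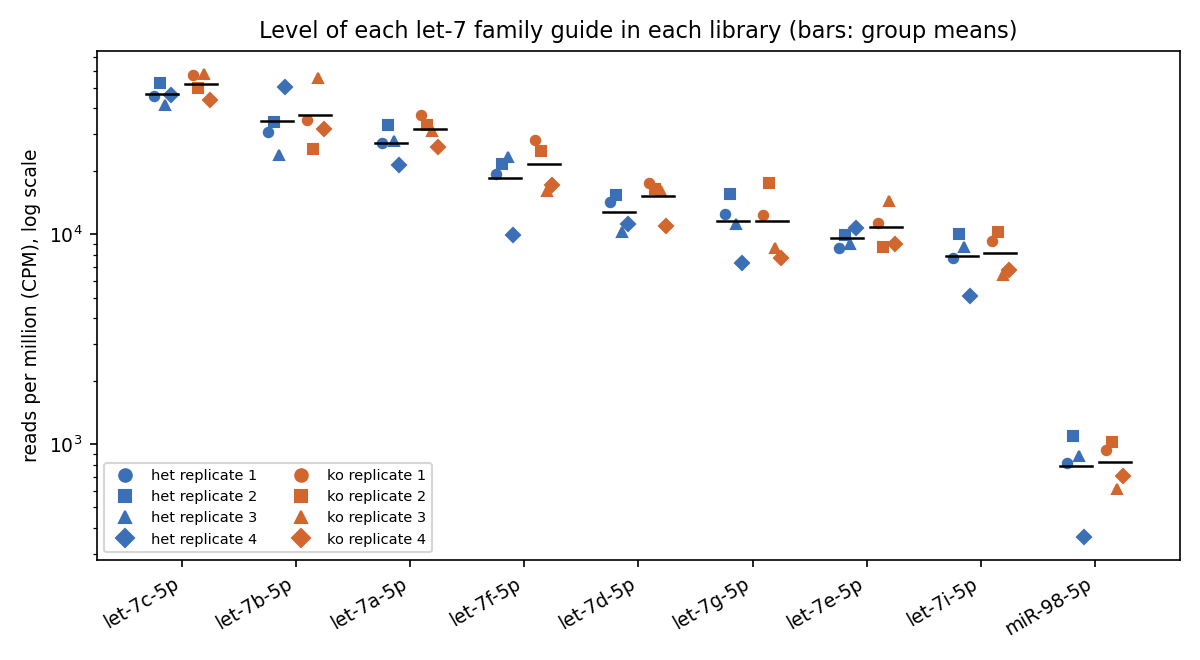
CPM of each let-7 family guide in each library on a log scale, with het libraries in blue, ko libraries in orange, 1 marker shape per replicate and black bars at the group means. Blue and orange points overlap for all 9 guides, and miR-98-5p lies far below the other guides.

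The order of the levels was tested within libraries, by exact two-sided sign-flip permutation of the log2 ratio of each of the 36 pairs of members over the 8 libraries. 32 pairs differed at a Benjamini-Hochberg adjusted p under 0.05, and in 29 of the 36 the same member was higher in all 8 libraries (exact p = 0.00781 for each of these, the smallest that 8 libraries allow). Of the 8 pairs of neighbours in the order, 4 differed. let-7c-5p was above let-7b-5p in 7 of 8 libraries (adjusted exact p = 0.0272), let-7a-5p above let-7f-5p and let-7i-5p above miR-98-5p in 8 of 8 (adjusted exact p = 0.0097 each), and let-7f-5p above let-7d-5p in 6 of 8 (adjusted exact p = 0.0352). let-7b-5p and let-7a-5p (adjusted exact p = 0.321), let-7d-5p and let-7g-5p (0.0827), let-7g-5p and let-7e-5p (0.508) and let-7e-5p and let-7i-5p (0.0827) did not pass, so the order among these neighbours was not resolved.

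Members differed in how steady they were. let-7c-5p, the top guide, measured 45878, 52646, 41445 and 46220 CPM in het replicates 1 to 4 and 57452, 49799, 58217 and 43528 CPM in ko replicates 1 to 4. Its highest library was only 1.40 times its lowest, and its share of the family stayed between 26.4% and 28.4%. The SD of log2 CPM over the 8 libraries ran from 0.18 in let-7c-5p to 0.51 in miR-98-5p with a median of 0.36, while over the 463 miRNAs that averaged 10 CPM or more the median was 0.50. Abundant miRNAs as a whole varied less, with a median of 0.40 over the 42 of the 50 most abundant that are outside the family, and 5 of the 9 guides lay below that value.

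In 1 library of each genotype let-7b-5p was the highest of that genotype while let-7f-5p, let-7i-5p and miR-98-5p were the lowest. let-7b-5p was at 30607, 34497, 23866 and 50325 CPM in het replicates 1 to 4 and at 35260, 25593, 55847 and 31901 CPM in ko replicates 1 to 4. het replicate 4 and ko replicate 3 stood well above the other 6 libraries, 1 in each genotype. let-7f-5p was at 19447, 21668, 23495 and 9899 CPM in het and at 28315, 25019, 16115 and 17236 CPM in ko, in the same order, so that these same 2 libraries were the lowest of their genotype. miR-98-5p, which lies beside let-7f-2 in the genome, was also lowest there, at 363 CPM in het replicate 4 against 817, 1089 and 877 CPM in the other het libraries and at 611 CPM in ko replicate 3 against 944, 1030 and 708 CPM. let-7i-5p had its lowest het value in het replicate 4 (5068 CPM) and its lowest ko value in ko replicate 3 (6378 CPM). The margin in ko was small, since let-7f-5p, let-7i-5p and miR-98-5p were at 17236, 6742 and 708 CPM in ko replicate 4. let-7g-5p was also lowest of het in replicate 4 (7286 CPM). Its value in ko replicate 3 (8616 CPM), however, was above that in ko replicate 4 (7748 CPM). The ratio of let-7b-5p to let-7f-5p reached 5.08 for het replicate 4 and 3.47 for ko replicate 3, and lay between 1.02 and 1.85 in the 6 other libraries. The share of let-7b-5p in the family accordingly ran from 13.6% to 31.0%.

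let-7b-5p is the guide with the highest G and C content of the family, and let-7f-5p and miR-98-5p have the lowest. let-7i-5p does not follow this order, since at 40.9% it has the same content as let-7e-5p, which was the highest of its genotype in both libraries, at 10778 CPM in the het one and 14438 CPM in the ko one. Over 386 other miRNAs with a RefSeq sequence, of 454 tested, the Spearman rho of a miRNA's deviation from its genotype mean with its share of G and C reached 0.41 for het replicate 4 and 0.53 for ko replicate 3, and lay from -0.45 to -0.05 in the other libraries. These rho values are across miRNAs of 1 library, which are not independent replicates. The summed level of the 7 epithelial miRNAs was also the highest of its genotype in het replicate 4 (8555 CPM) and ko replicate 3 (1794 CPM). The parts of base composition and of these miRNAs in the balance of the family were not tested. As let-7b-5p was highest in het replicate 4 and ko replicate 3, the limma fits and the exact tests between genotypes are also given without them.

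**Figure D2:**
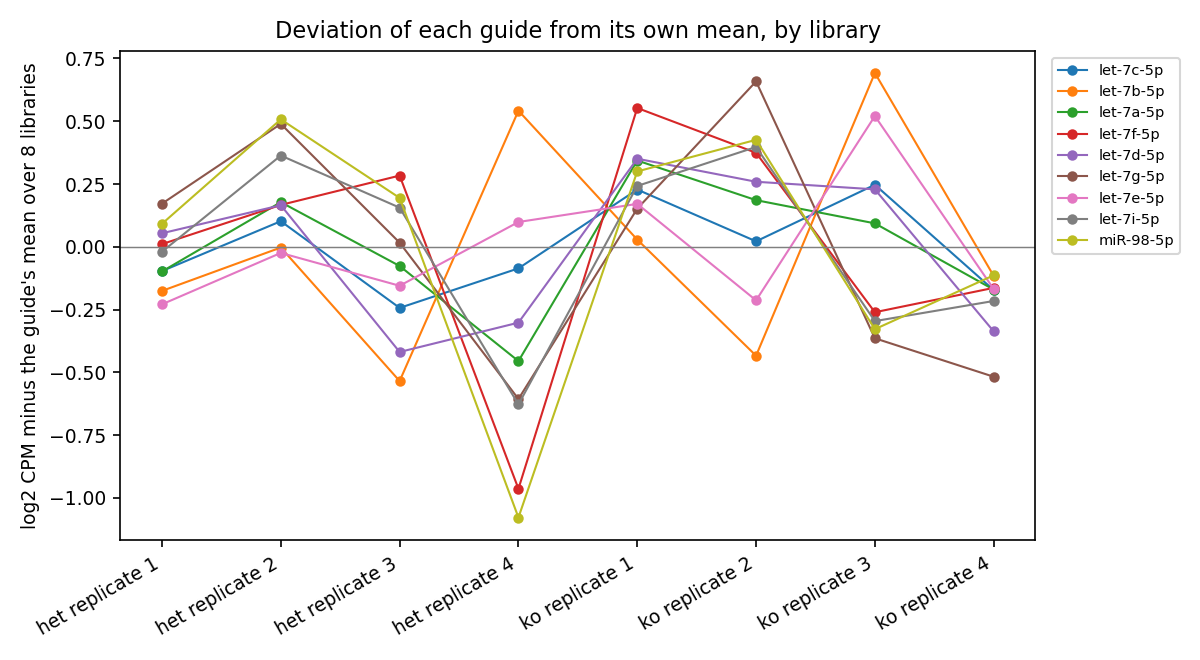
For each library, the log2 CPM of each guide minus that guide's mean over the 8 libraries, with 1 coloured line per guide. In het replicate 4 and ko replicate 3 let-7b-5p is above its mean while let-7f-5p, let-7g-5p, let-7i-5p and miR-98-5p are below theirs.

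To ask whether the loss of Rubicon went with a change of any member, log2(CPM + 1) of all 463 miRNAs was fitted with limma, a linear model that shares information on variance between miRNAs. 0 of 9 members passed at a limma adjusted p under 0.05, where 1.30% of all tested miRNAs did, and 0 of 9 had an unadjusted p under 0.05, where 7.34% did. edgeR and DESeq2 on the recovered reads also called 0 members, and 0 had an unadjusted p under 0.05 with either. In both tools, run on all 8 libraries, the 9 log2 fold changes were above 0, from 0.11 to 0.38 in edgeR and from 0.12 to 0.40 in DESeq2. For none of the 9 did the het and ko libraries separate without overlap, against 3.46% of all tested miRNAs.

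No fitted difference was far above its standard error, and only those of let-7a-5p and let-7d-5p exceeded it. Fold changes are ko over het on the log2(CPM + 1) scale. let-7a-5p was 27415 ± 4810 CPM in het and 31945 ± 4642 in ko, which gave 0.23 (SE 0.21, limma adjusted p = 0.948). let-7d-5p was 12821 ± 2462 and 15291 ± 2977 CPM (0.25, SE 0.24), and let-7f-5p 18627 ± 6050 and 21671 ± 5941 CPM (0.25, SE 0.30). For let-7c-5p the log2 fold change was 0.16 (SE 0.19), for let-7e-5p 0.15 (SE 0.23), for miR-98-5p 0.14 (SE 0.34), for let-7b-5p 0.09 (SE 0.28), for let-7i-5p 0.06 (SE 0.27) and for let-7g-5p -0.04 (SE 0.31). The limma adjusted p-values of the 9 ran from 0.948 to 0.995.

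The 95% interval of the fold change was 0.84 to 1.48 for let-7c-5p, the most precise, and 0.66 to 1.84 for miR-98-5p, the least precise. A 1.5-fold rise lay inside the interval of every member other than let-7c-5p. The median log2 fold change was 0.15 over the 9 members and -0.09 over all 463 miRNAs. Centring each library on its median miRNA raised every log2 fold change by 0.22 and turned that of let-7g-5p to 0.19, and no member passed. Without het replicate 4 and ko replicate 3, left out together once their values had been seen, log2 fold changes ran from -0.13 (let-7g-5p) to 0.16 (let-7d-5p), with those of let-7i-5p (-0.025) and miR-98-5p (-0.060) below 0, and again no member passed (limma adjusted p at least 0.982). The difference of the family total was 11045 CPM without them (exact permutation p = 0.7). With 3 libraries a group no exact p under 0.05 is possible, so this p cannot decide on a difference.

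**Figure D3:**
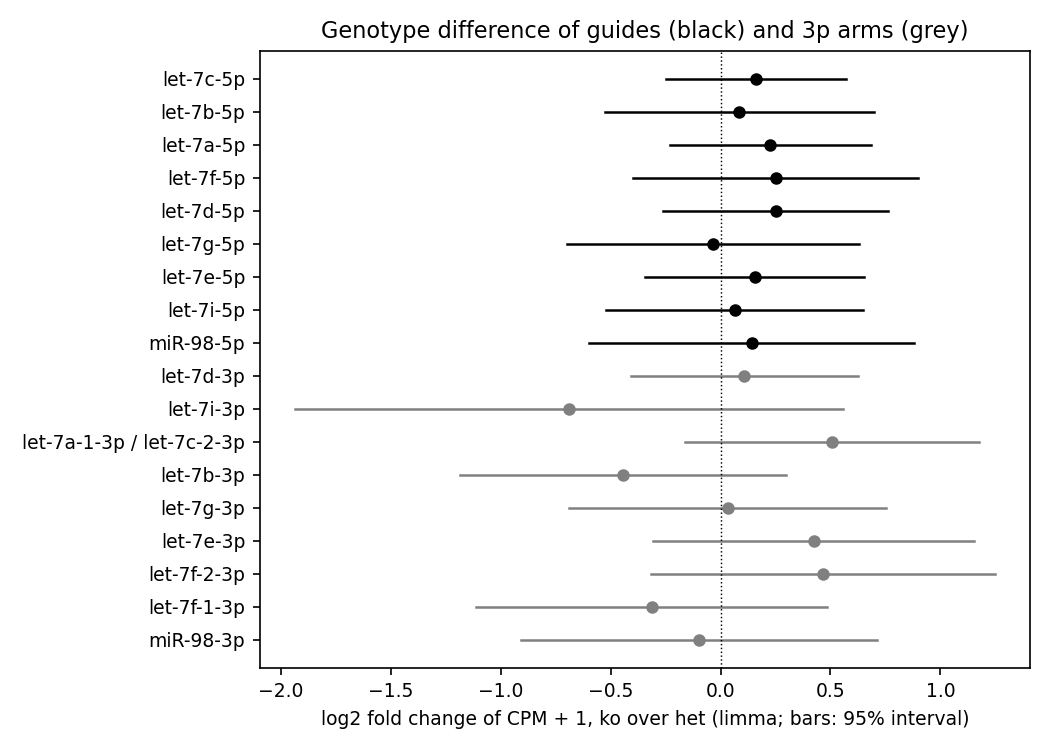
limma log2 fold change of CPM + 1, ko over het, with its 95% interval, for the 9 guides (black) and the 9 tested 3p arms (grey). Every interval crosses 0, and that of let-7i-3p is the widest.

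Shares within the family do not depend on miRNAs outside it. None of the 9 shares passed the test between genotypes (exact permutation test, adjusted p from 0.9 to 0.971 over the 9). As 4 against 4 allows no exact p below 0.0286, a single share that separated fully could not have passed after this adjustment. let-7c-5p made up 27.4% ± 0.833 of the family in het and 27.6% ± 0.793 in ko, and let-7b-5p 20.6% ± 7.06 and 19.5% ± 5.71 (SD, n = 4 each). let-7d-5p had the smallest p of the 9, with 7.50% ± 0.926 in het and 8.02% ± 0.736 in ko (exact permutation p = 0.371, adjusted p = 0.9). Without het replicate 4 and ko replicate 3 the difference of let-7b-5p went from -1.05 to -0.0364 percentage points and that of let-7d-5p from 0.516 to 0.389.

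Because the seed sets which mRNAs are targeted and how the study scores toxicity, the seeds that family reads carry were examined. The table takes bases 2 to 7 of each read as its 6mer seed, and for the mature family guides this is GAGGUA, with a viability score of 50.3. Of all CPM with this seed the 9 members carried 98.7% ± 0.11 (SD, n = 8). Other miRNA names with it were scarce, at 7.99 CPM for let-7k, 0.966 CPM for miR-3962 and 0.523 CPM for let-7j. A further 1.26% ± 0.111 was in 1229 sequences with no miRNA name, and 88.6% of the CPM of these had a let-7 or miR-98 hairpin among their other annotations.

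Some family reads had another seed because they started at another base. 97.9% ± 0.113 of family CPM kept GAGGUA, and 2.09% was spread over the remaining 98 of 99 seeds. A start 1 base later gave AGGUAG (viability 60.2) in 1.08% ± 0.108 of family CPM, and a start 1 base earlier mostly gave UGAGGU (viability 20.7) in 0.304% ± 0.0489. The most abundant reads of these kinds came from let-7c (410 ± 91.2 CPM) and let-7g (49.1 ± 16.3 CPM) and are printed with the shifted 6mer seed in capitals.
let-7c read, 1 base later: gAGGTAGtaggttgtatggtt
let-7g read, 1 base earlier: cTGAGGTagtagtttgtacagtt
Only 0.6% ± 0.0641 of family CPM carried a seed with a viability under 40.

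By member, starts 1 base later were most frequent in let-7d-5p (1.44% ± 0.161), let-7a-5p (1.35% ± 0.24) and let-7c-5p (1.34% ± 0.115) and rarest in miR-98-5p (0.169% ± 0.15). Starts 1 base earlier were most frequent in let-7g-5p (0.919% ± 0.146) and let-7d-5p (0.869% ± 0.0889), and were at most 0.334% in each of the other 7 members. Of 990 seeds tested with limma, 0.303% passed. The 2 seeds that carry at least 1% of the reads of any member were read from that fit, and neither passed. The limma log2 fold changes were 0.15 for GAGGUA (SE 0.18, adjusted p = 0.983) and 0.15 for AGGUAG (SE 0.24, adjusted p = 0.996). For GAGGUA the 95% interval of the fold change was 0.84 to 1.46. Without het replicate 4 and ko replicate 3 the log2 fold changes were 0.082 and 0.068, and neither seed passed.

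The seed of the family lay just under the centre of the viability scale of these libraries. Over the 8 libraries 28.8% ± 2.0 of all CPM had a seed with a score below 50.3, 17.97% ± 2.18 had exactly that score and 53.3% ± 3.51 had a higher one. In ko replicates 1 and 3 the median read of the library had this score itself. With the family reads left out, the median seed viability rose from between 50.3 and 57.2 to between 57.3 and 59.0, and it was 57.7 in both genotypes as a mean of 4 libraries. The mean seed viability, which does not move in steps, rose from 56.4 ± 0.775 to 57.7 ± 0.811 when the family was left out (SD, n = 8).

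The 3′ ends varied more than the 5′ ends, and they differed between members. The read identical to the mature sequence made up 65.1% ± 1.78 of let-7g-5p and 33.7% ± 1.57 of let-7b-5p (SD, n = 8), which were the highest and the lowest of the 9. It was the most abundant read of every member. let-7b-5p had 14.5% ± 1.33 of its CPM in reads that ended 2 bases short, against 1.94% to 6.01% in the other members, and 31.6% ± 1.95 in reads that ran past the mature end. let-7i-5p ran past the mature end in 34.8% ± 2.86 and was trimmed in only 16.4% ± 1.93, the lowest of the 9. In let-7f-5p and miR-98-5p only 7.55% ± 0.673 and 7.84% ± 2.78 ran past it.

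**Figure D4:**
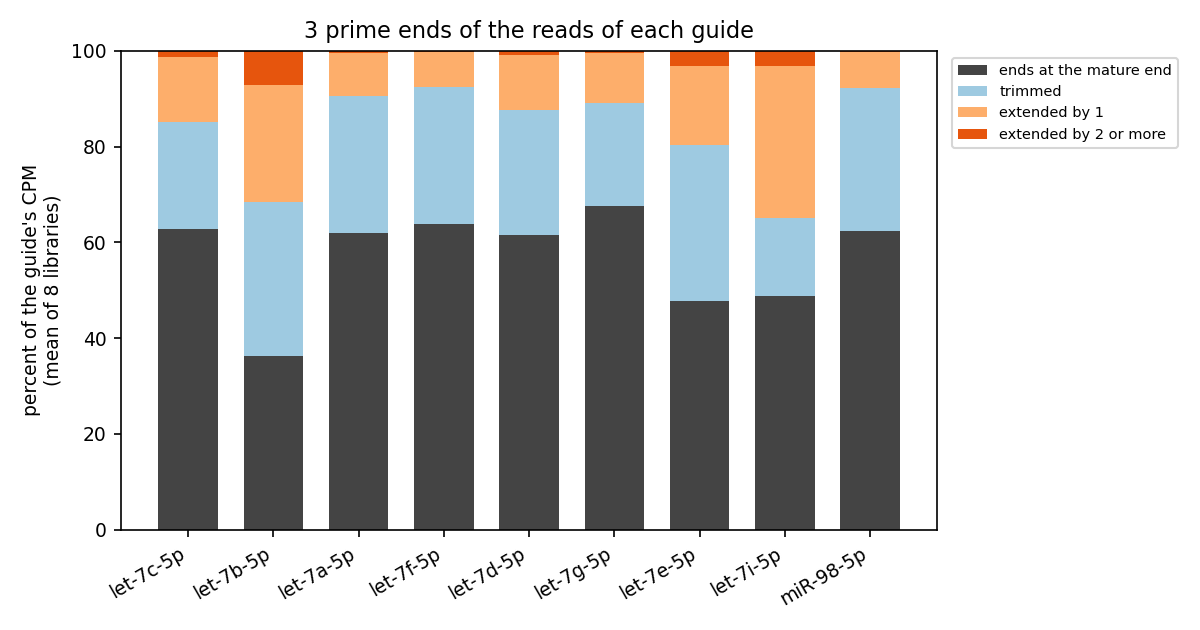
Percent of the CPM of each guide, as a mean of 8 libraries, in reads that end at the mature 3′ end, before it, 1 base past it, or 2 or more bases past it. let-7b-5p and let-7i-5p have the largest extended parts and let-7b-5p the smallest part that ends at the mature end.

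Some reads ended in bases that match no hairpin of their guide. Such non-templated tails were on 34.8% ± 2.93 of let-7i-5p, 20.5% ± 1.76 of let-7b-5p, 17.7% ± 1.58 of let-7e-5p and 5.99% to 10.9% of the other members. Tails of A alone were on 18.3% ± 2.98 of let-7i-5p, 12.3% ± 1.22 of let-7b-5p and 9.05% ± 0.697 of let-7c-5p, and on 3.85% to 7.52% of the rest. let-7i-5p exceeded let-7b-5p in 7 of 8 libraries and each of the other 7 members in 8 of 8. Tails of U alone were on 14.1% ± 1.29 of let-7i-5p, 8.43% ± 0.732 of let-7e-5p and 3.59% ± 1.76 of miR-98-5p. In let-7a-5p, let-7b-5p, let-7c-5p, let-7d-5p, let-7f-5p and let-7g-5p a hairpin continues with U after the mature end, so a first added U cannot be told apart from the hairpin there, and the 2.34% found in let-7b-5p and 0.054% to 0.147% in the other members of this set are not comparable with those values. The most abundant reads with 1 A added had 1280 ± 420 CPM (let-7i) and 2125 ± 683 CPM (let-7b), and the added base is the capital.
let-7i read with A tail: tgaggtagtagtttgtgctgttA
let-7b read with A tail: tgaggtagtaggttgtgtggttA

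No measure of read form passed the test between genotypes. Reads without the GAGGUA seed made up 2.05% ± 0.0893 of the family in het and 2.12% ± 0.139 in ko, trimmed reads 26.9% ± 0.724 and 26.4% ± 1.13, and extended reads 17.5% ± 1.90 and 17.0% ± 1.57 (SD, n = 4 each). Mean read length was 21.8 nt in both. All 4 had an exact permutation p of at least 0.429 and an adjusted p of 0.714. With 0.0286 the smallest p possible, a single measure that separated fully could not have passed after adjustment over the 4. Without het replicate 4 and ko replicate 3 the ko minus het difference went from 0.0621 to 0.0341 percentage points for reads without the seed, from -0.499 to -0.437 for trimmed reads and from -0.514 to -0.0582 for extended reads, and that of mean length from 0.00425 to 0.008 nt. A tails were on 8.81% ± 0.264 of family CPM in het and 8.71% ± 0.732 in ko, and on 8.73% ± 0.261 and 8.54% ± 0.793 without these libraries (SD, n = 3 each).

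Single read sequences were fitted as well. 257 family sequences averaged 10 CPM or more, which held 98.5% of the CPM of the family, and were tested among 3299. 0 of the 257 passed in limma, where 0.485% of all tested sequences did, and 3 had an unadjusted p under 0.05, where 5.30% did. The remaining 1884 family sequences were too scarce to test. The reads with the smallest p in each direction are printed since none passed and these show how large a difference remained.
let-7d read, higher in ko: ggtagtaggttgcatagtt
let-7i read, higher in ko: tgaggtagtagtttgtgctgtaa
let-7g read, lower in ko: tgaggtagtagtttgtaca
let-7b read, lower in ko: tgaggtagtaggttgtgtggttga
The let-7d read starts 3 bases late and averaged 15.2 ± 4.49 CPM over het and 35.6 ± 10.8 CPM over ko libraries, which gave 1.17 on the log2 scale (SE 0.40, limma adjusted p = 0.662). It rests on 9 reads in het replicate 1, the shallowest library. The let-7i read was at 37.3 ± 13.5 and 87.0 ± 39.8 CPM (1.11, SE 0.44, limma adjusted p = 0.797). For the let-7g read, trimmed by 3 bases, and the let-7b read, 2 bases longer than the mature form, the log2 fold changes were -0.97 (SE 0.56) and -0.69 (SE 0.45), each at an adjusted p of 0.973 in limma. The let-7g read moved most with the libraries used, to -1.40 without ko replicate 2, -0.52 without ko replicate 4 and -1.98 without the 2 deepest libraries, and passed in none of these. Without het replicate 4 and ko replicate 3 the log2 fold changes were 1.08 for the let-7d, 1.39 for the let-7i, -1.13 for the let-7g and -1.11 for the let-7b read, and none passed.

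The other strand of each hairpin, the passenger or 3p arm, is mostly discarded when a guide is loaded. The 11 names of 3p arms summed to 2835 ± 294 CPM, and the guides exceeded them 63.8 ± 8.48 times (SD, n = 8), from 51.8 to 81.2 times over the libraries. The log2 of this ratio was 5.91 ± 0.165 in het and 6.06 ± 0.194 in ko (SD, n = 4 each, exact permutation p = 0.371). The difference of 0.15 was 0.11 without het replicate 4 and ko replicate 3. 9 of the 11 arms were abundant enough for the limma fit and 0 of them passed (adjusted p at least 0.791), nor did any without those 2 libraries (adjusted p at least 0.885).

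A pair of 3p arms held most of the passenger reads. let-7d-3p had 1493 ± 185 CPM and let-7i-3p 716 ± 327 CPM (SD, n = 8), and together with the name shared by let-7a-1-3p and let-7c-2-3p (192 ± 55.9 CPM) they were the 3 highest. They share no seed with the guides, as their RefSeq sequences with bases 2 to 8 in capitals show.
let-7d-3p: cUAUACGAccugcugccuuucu
let-7i-3p: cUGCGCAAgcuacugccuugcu
The let-7d guide exceeded its 3p arm only 9.44 ± 1.81 times, while let-7a and let-7c guides together exceeded theirs 419 ± 136 times. let-7i-3p was at 620, 1117, 515 and 966 CPM in het replicates 1 to 4 and at 104, 893, 941 and 574 CPM in ko replicates 1 to 4. The value of ko replicate 1, from 821 reads, was far below all others, while let-7i-5p was at 9261 CPM in that library, within its range elsewhere. The ratio of let-7i-5p to let-7i-3p was 88.7 there and 5.25 to 16.9 in the other 7 libraries. let-7f-2-3p, from the hairpin beside miR-98, was above let-7f-1-3p in 7 of 8 libraries and had 2.75 times its CPM on average, with ratios from 0.912 to 6.69.

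**Figure D5:**
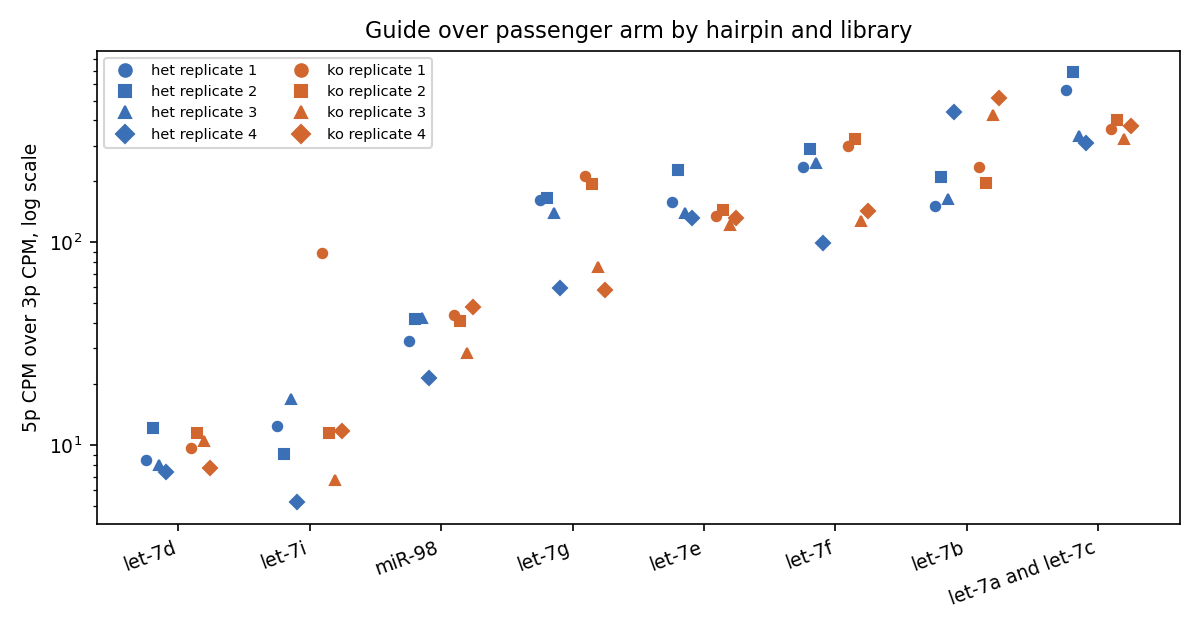
CPM of the 5p guide over CPM of the 3p arm, on a log scale, by hairpin and library, with the same colours and markers as the levels. let-7d and let-7i have the lowest ratios, and the 1 high let-7i point is ko replicate 1 at 88.7.

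Since single bases separate the members, reads that lie between 2 members were counted. Every read with a family name held at least 18 bases in a row identical to its mature sequence. Reads that also lie whole within the mature sequence of another member made up 1.11% ± 0.155 of let-7a-5p. For miR-98-5p, 6 sequences 1 change away from both it and a more abundant member made up 5.80% ± 1.61 of its CPM (SD, n = 8). The most abundant carries U19G relative to miR-98 and had 20.7 CPM, or 4.90% ± 1.84 of the mature miR-98 read, and its changed base is the capital.
miR-98 read with U19G: tgaggtagtaagttgtatGgtt
It is also 1 change away from let-7c, which was far more abundant, so which of the 2 it came from cannot be told apart.

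Other full-length reads with 1 changed base were rare. Those with U22A ranged from 0.503% of the mature read in let-7g to 3.55% ± 0.27 in let-7b, and an A added to a trimmed end gives the same letters. A3G, inside the seed, was found at 0.12% to 0.197% in all 9 members. A10G was at 0.525% ± 0.0997 in let-7b, 0.387% ± 0.102 in let-7g and 0.182% ± 0.0361 in let-7c, and at 0.048% to 0.113% in let-7a, let-7d, let-7e, let-7f and let-7i, with no such miR-98 read listed. The let-7b form had 63.9 ± 24.7 CPM, carries no miRNA name in the table, and is printed with the changed base in capitals.
let-7b read with A10G: tgaggtagtGggttgtgtggtt
Its seed is that of the family, and the cause of the change was not tested.

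Several let-7 hairpins are made from the same transcript as other miRNAs, let-7c-1 with miR-99a and miR-125b, let-7a-2 with miR-100 and miR-125b, and let-7e with miR-99b and miR-125a. Of these partners miR-125b-5p was at 22226 ± 7948 CPM, miR-125a-5p at 8761 ± 2592, miR-99a-5p at 8631 ± 3968, miR-100-5p at 1708 ± 583 and miR-99b-5p at 1356 ± 368 CPM (SD, n = 8). 0 of the 5 passed the limma test. miR-99a-5p was at 11543, 7824, 13115 and 11608 CPM in het replicates 1 to 4 and at 1524, 6933, 5214 and 11283 CPM in ko replicates 1 to 4. The groups overlapped through ko replicate 4, and ko replicate 1 was far below the others. The miR-99a-5p difference of -1.12 on the log2 scale (SE 0.48, limma adjusted p = 0.593) was -0.69 in edgeR and -0.67 in DESeq2. In limma it ran from -1.51 to -0.55 with each library left out in turn, with -0.55 without ko replicate 1. It was -0.50 without both deepest libraries and -1.10 without het replicate 4 and ko replicate 3. For let-7c-5p the log2 fold change with all libraries was 0.16.

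Among 269 miRNAs outside the family that averaged 100 CPM or more, those whose log2 CPM followed the family total most closely over the 8 libraries were miR-382-5p (Pearson r = 0.95), miR-434-3p (0.90), miR-874-3p (0.88), miR-342-3p (0.81) and miR-487b-3p (0.80). They were the closest of many over only 8 points, which share their depth and their scaling, and the values are a description.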

How the data were processed

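Argonaute-bound small RNAs of 8 mouse brains, 4 per genotype, were analysed, with groups and replicate numbers from the sample titles. The authors trimmed reads (Trim Galore; version not given in the sources used here), processed them with their SPOROS pipeline, which drops rare and artificial sequences, and deposited 1 line per sequence with its name and its level in CPM (reads scaled to a library of 1000000). A pooled column of totals was not used. The deposited viability score is the authors' mean over 3 mouse cell lines, from an earlier screen. The genome build and annotation of the table are not given in the sources used here. CPM is relative, so levels depend on the other RNAs of a library. Division by the value of 1 read gave whole reads (100% of values, within rounding and 0.1% of a read) and thus the depth.

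The 9 members were matched by name, and the members, gene lists and tests were chosen with earlier results of these data known. All members are named. By the naming rule, so are the most abundant reads, the 2 reads of smallest p in each direction where none passed, the 3 highest 3p arms, 5 cluster partners, other names with the seed and the 5 most similar miRNAs. Reads with shifted starts, tails or single changes and single libraries were named after their values were seen. CPM was summed by name and seed. miRNAs, sequences and seeds that averaged 10 CPM or more were fitted on log2(CPM + 1) in limma 3.58.1 (trend and robust, R 4.3.3), without covariates, with Benjamini-Hochberg adjustment over the whole table and a threshold of 0.05. edgeR 4.0.16 and DESeq2 1.42.0 on recovered reads were alternatives. The family total, shares, read forms and arm ratio were compared by exact two-sided permutation over all 70 splits. On simulated data in which 20 of 463 miRNAs differed by 2 log2 units, 85% of these were recovered in limma. Recovery was lower for sequences (57% of 200 changed among 3299) and seeds (70% of 50 among 990). Changes as small as those fitted for the members were not simulated, so recovery of such changes is not known. Each library comes from a separately numbered mouse. Read ends were placed on RefSeq hairpins (GRCm38.p6). Other steps used Python 3.11.15, numpy 2.4.6, pandas 2.3.3, scipy 1.17.1 and matplotlib 3.10.9. Alternatives were other pseudocounts (0.1 and 10), other minimum means (1 and 100 CPM), centring, a replicate block, leaving out libraries and subsets of reads.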

Additional observations from a re-analysis of the deposited data

Results flagged for a closer look

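The levels, shares and ratios of the family and its 3p arms, its read forms, the 4 reads of smallest p and miR-99a-5p gave 98 groups of 4 libraries, in each of which the most extreme library was compared with its nearest neighbour by Dixon's gap at its 95% critical value. In 4 groups a library stood apart, while chance gives about 4.9. The ratio of let-7i-5p to let-7i-3p was 88.7 in ko replicate 1, with 11.7 in the next ko library. The let-7b read of 24 nt was at 54.1 CPM in het replicate 1, from 28 reads, with 24.1 CPM in the next het library, and at 28.8 CPM in ko replicate 3, with 13.7 CPM in the next ko library. The mean length of family reads in ko replicate 2, the deepest library, was 21.8097 nt, with 21.8456 nt in the next ko library. het replicate 3 had the same mean length and did not stand apart in its group.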

How the results depend on the processing

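Of 496 recomputed values, 466 kept their direction and their side of the threshold or, for counts of results that passed, stayed within 1.5-fold. The other 30 changed sign, all of them differences that passed no test under any setting. In 110 of the 496 no p under 0.05 was possible (at best 0.0571 with 1 library left out), so they say nothing on the threshold. These were exact tests of the family total, shares, read forms and arm ratio with libraries left out or in pairs. Of the other 386, 367 were kept in the same sense and 19 changed sign. No member, no family sequence and neither of the seeds GAGGUA and AGGUAG passed under any alternative that was run. In limma the log2 fold change of let-7g-5p (-0.04) became 0.19 after centring on the library median, 0.11 in edgeR and 0.12 in DESeq2. The tools also moved let-7b-5p (0.09) to 0.23 and 0.24, let-7i-5p (0.06) to 0.18 and 0.19, let-7c-5p (0.16) to 0.30 and 0.31, let-7e-5p (0.15) to 0.31 and 0.32, let-7a-5p (0.23) to 0.35 and 0.36 and let-7d-5p (0.25) to 0.38 and 0.40, in edgeR and DESeq2 in turn. Without the 2 libraries over 5000000 reads, both ko, log2 fold changes became -0.46 for let-7g-5p (limma adjusted p = 0.716), -0.22 for let-7i-5p, -0.15 for miR-98-5p, -0.086 for let-7f-5p, 0.071 for let-7d-5p, 0.074 for let-7a-5p, 0.12 for let-7c-5p, 0.25 for let-7e-5p and 0.33 for let-7b-5p, the arm ratio difference became 0.038 on the log2 scale, the share difference of let-7b-5p 3.25 and of let-7d-5p -0.0569 percentage points, and the difference of extended reads 0.805 percentage points. Without the 2 libraries high in let-7b, let-7i-5p became -0.025 and miR-98-5p -0.060. With each library left out in turn, log2 fold changes ran from -0.13 to 0.28 for let-7b-5p, -0.028 to 0.39 for let-7f-5p, -0.26 to 0.13 for let-7g-5p, -0.13 to 0.20 for let-7i-5p, -0.19 to 0.33 for miR-98-5p, 0.11 to 0.32 for let-7a-5p, 0.11 to 0.25 for let-7c-5p, 0.15 to 0.40 for let-7d-5p, 0.0073 (without ko replicate 3) to 0.25 for let-7e-5p, 0.098 to 0.25 for the GAGGUA seed and 0.043 to 0.28 for AGGUAG, and the arm ratio difference ran from 0.058 to 0.20. Share differences then ran from -3.50 to 2.42 percentage points for let-7b-5p and -0.101 to 0.567 for let-7c-5p and 0.210 to 0.870 for let-7d-5p, that of reads without the GAGGUA seed from 0.0089 to 0.119 and of trimmed reads from -0.952 to -0.0684 percentage points, that of mean read length from -0.00378 to 0.0137 nt, and that of extended reads from -1.09 to 0.379 percentage points. Log2 fold changes of the 4 printed reads of smallest p ran from 0.95 to 1.40 (let-7d), 0.90 to 1.52 (let-7i), -1.40 to -0.52 (let-7g) and -0.97 to -0.35 (let-7b), and without the 2 libraries over 5000000 reads were 1.5, 0.53, -1.98 and -0.37. The family total difference ran from 12922 to 31544 CPM, and 30 to 32 of 36 pairs of members differed. The cause of these shifts was not tested. Replicate numbers did not pair the mice, since the deviations of same-numbered libraries correlated at 0.04, 0.29, -0.18 and 0.25 over 463 miRNAs, and with the replicate block 0 of 9 members passed and the family total difference of 19568 CPM had an exact sign-flip p of 0.5, where 4 pairs allow no p below 0.125. Counting error was measured for the family total alone, and it adds to the spread between mice for scarce reads.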
